A study of Mus musculus with 21 samples.

Results

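The RNA that untreated NMuMG cells had made during a 2 h labelling time was compared with the total RNA of the same kind of culture, gene by gene. NMuMG is an established mouse mammary gland epithelial line. Arrays were chosen by their titles, which gave 3 arrays of enriched RNA and 3 arrays of total RNA, 6 of the 21 arrays of the series. All 6 came from cells grown with 200 µM 4-thiouridine (4sU), a uridine analogue that is built into RNA as it is transcribed, and none of these cells received transforming growth factor beta 1 (TGF-b1). For the enriched arrays the 4sU-carrying RNA was pulled out of the extract by chromatography on a mercury-based reagent, and it is called newly made RNA here. The study also holds 6 NMuMG arrays from cells given 200 µM 4sU together with 5 ng/ml TGF-b1, again 3 of newly made and 3 of total RNA, and 9 arrays of another cell line that are not used here. Both kinds of RNA were amplified linearly over a pair of rounds before they were hybridised to Affymetrix arrays.

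Total RNA holds what has piled up in the cell, and newly made RNA holds what was transcribed in the labelling time. A transcript that is degraded quickly has to be made quickly to keep its level, so it takes a larger share of newly made RNA than of total RNA, whereas a long-lived transcript takes a smaller share. Short-lived transcripts are known mainly from genes of transcription factors, signalling inhibitors and cytokines, and long-lived ones from genes of metabolism, respiration and the ribosome. Each value below is relative to its own array: a difference ranks genes within these cells and is neither a decay rate nor an amount of RNA per cell. Nuclear and unspliced RNA is also part of what is newly made.

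Levels are the deposited expression values, read as log2, and a difference is the mean level in newly made RNA minus that in total RNA. The standard error (SE) follows a difference after ±, and a gene is called higher or lower in newly made RNA at a limma adjusted p under 0.05. Across the whole array the medians were 5.94 to 5.999 in newly made RNA and 5.71 to 5.73 in total RNA, a shift of 0.25, so centring each array on its median would lower every difference below by 0.25. Correlations over genes were 0.988 to 0.994 within newly made RNA, 0.993 to 0.996 within total RNA and 0.938 to 0.953 between them. Probe sets for 18S ribosomal RNA at its 5′ end averaged 11.45 ± 0.27 in newly made RNA, against 13.39 ± 0.33 in total RNA (SD, n = 3 each), whereas the hybridisation spikes averaged 10.56 ± 0.17 and 10.49 ± 0.23. The signal of the Gapdh control probe sets at the 3′ end minus that at the 5′ end was 3.10 ± 0.55 in newly made RNA, against 1.81 ± 0.16 in total RNA (SD, n = 3 each), and for Actb 2.45 ± 0.66 and 1.44 ± 0.09. This contrast between transcript ends thus moved with the kind of RNA, and its part in the results was not tested. Of 12 epithelial markers 6 lay above the median level of all genes. Among these 6, Krt8 averaged 12.97 ± 0.12 in newly made RNA, against 14.10 ± 0.23 in total RNA (SD, n = 3 each). Cdh1 averaged 10.51 ± 0.10 in newly made RNA, against 11.58 ± 0.14 in total RNA (SD, n = 3 each). Of all 12 epithelial markers 5 were lower and 0 higher. Their mean level was 7.67 to 7.80 in newly made RNA, against 8.46 to 8.54 in total RNA. The labels do not say whether both kinds of RNA came from the same dishes, and where they did not, fewer cells of a type and less RNA per cell cannot be told apart. Of the markers of other cell types, 1 of 9 leukocyte, 1 of 10 fibroblast, 1 of 7 basal and 1 of 6 endothelial genes lay above the median level of all genes. The 9 leukocyte markers had a mean level of 5.61 to 5.72 in newly made RNA, against 5.89 to 5.96 in total RNA, and the 10 fibroblast markers 5.21 to 5.47, against 5.05 to 5.29. Leukocyte-defining Ptprc averaged 3.99 ± 0.06 in newly made RNA, against 4.04 ± 0.13 in total RNA (SD, n = 3 each), while Cd14 averaged 10.84 ± 0.26 in newly made RNA, against 11.64 ± 0.25 in total RNA (SD, n = 3 each). The part of these markers in the results was not tested.

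Promoters of genes described below are shown first, since genes of the mitochondrial and ribosomal machinery moved together on these arrays and many carry a sequence bound by ETS-family factors. Windows of 300 bases, 250 before and 50 after the annotated start, were taken from RefSeq on GRCm38.p6. Capitals mark the letters CCGGAAG, the ETS-type motif, or TATAAA, the TATA box motif, on either strand. The respiratory chain gene Atp5e and the mitochondrial ribosomal gene Mrpl17 were lower in newly made RNA, and the zinc finger gene Zfp458 and the immediate-early gene Nr4a2 were higher. Each is the member of its list with the smallest p in that direction whose first-listed window holds the motif. The windows shown thus hold it by choice, and members without it were passed over.
Atp5e promoter, chr2:174464052-174464351, minus strand: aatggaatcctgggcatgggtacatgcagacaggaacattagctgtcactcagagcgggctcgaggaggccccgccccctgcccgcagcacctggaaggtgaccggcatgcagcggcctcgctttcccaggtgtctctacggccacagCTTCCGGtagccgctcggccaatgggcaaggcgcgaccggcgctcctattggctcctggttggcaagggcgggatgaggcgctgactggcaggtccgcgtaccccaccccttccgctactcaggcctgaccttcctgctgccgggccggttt
Mrpl17 promoter, chr7:105811038-105811337, minus strand: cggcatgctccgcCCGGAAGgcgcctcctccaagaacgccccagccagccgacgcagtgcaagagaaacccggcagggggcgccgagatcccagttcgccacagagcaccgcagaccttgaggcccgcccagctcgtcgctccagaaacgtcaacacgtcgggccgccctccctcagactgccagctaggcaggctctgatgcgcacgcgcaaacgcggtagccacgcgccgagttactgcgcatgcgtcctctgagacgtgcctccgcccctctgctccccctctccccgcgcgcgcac
Zfp458 promoter, chr13:67268945-67269244, minus strand: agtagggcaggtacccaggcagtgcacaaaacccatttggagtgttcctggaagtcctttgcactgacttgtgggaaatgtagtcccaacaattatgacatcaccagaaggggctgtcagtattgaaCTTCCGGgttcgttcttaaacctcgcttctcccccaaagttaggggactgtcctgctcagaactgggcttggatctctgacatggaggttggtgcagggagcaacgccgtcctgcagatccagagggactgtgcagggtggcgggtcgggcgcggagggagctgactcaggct
Nr4a2 promoter, chr2:57123954-57124253, minus strand: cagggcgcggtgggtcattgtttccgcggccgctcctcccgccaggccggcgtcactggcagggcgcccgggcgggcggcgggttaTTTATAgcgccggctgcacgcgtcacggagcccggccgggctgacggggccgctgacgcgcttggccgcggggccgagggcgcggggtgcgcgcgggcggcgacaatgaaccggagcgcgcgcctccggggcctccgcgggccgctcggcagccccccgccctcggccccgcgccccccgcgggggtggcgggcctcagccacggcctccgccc
A match is a run of letters in these windows and not a shown binding site. CCGGAAG was present in 34.2% of 73 promoters of mitochondrial ribosomal genes, 39.6% of 48 promoters of cytosolic ribosomal genes and 23.9% of 71 promoters of nuclear respiratory chain genes, against 8.86% of all 32851 promoters in the table. It was also present in 20.5% of 308 promoters of numbered zinc finger genes, which lay on the other side of the comparison. Over genes above the median level, it was in 18.4% of 2796 promoters of genes that were not called. At that level it was in 16.3% of 2753 promoters of genes called higher and 21.7% of 3997 promoters of genes called lower. TATAAA was in 7.12% of the promoters of these higher genes and 6.83% of those of the lower genes. It was in 13.6% of all promoters and in 17.2% of 29 promoters of immediate-early genes. The share with TATAAA thus differed little between both directions, while that with CCGGAAG was larger for the lower genes. The TATAAA letters were counted anywhere in the window on either strand, so the count is not one of placed TATA boxes. Median GC content was 62.67% for the higher and 60.67% for the lower genes. Of the genes above the median level, 2105 of 2606 higher and 3181 of 3823 lower ones matched a promoter by symbol.

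Newly made and total RNA differed for a large share of genes. Of 18193 genes, 3131 were higher (17.2%) and 4877 were lower (26.8%) in newly made RNA, 8008 in all (44%), and 8996 had an unadjusted p under 0.05. The difference was at least 2-fold for 1327 higher and 1990 lower genes. Among the 9096 genes above the median level of 6.69, 28.6% were higher and 42% lower. The counts of each list below are to be read beside these shares and those of all genes. The median difference over all genes was -0.08, and the 5th and 95th percentiles were -1.46 and 1.22. For 50.1% of genes the 3 newly made arrays did not overlap the 3 total arrays. Genes named below for a small p or for separate arrays mostly have this trait by choice, so it adds no support. With only probe sets designed from RefSeq mRNAs, an alternative chosen after seeing the data, 439 of 5120 genes were higher and 1776 lower.

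Among genes with an ordinary symbol, separate arrays and a level at or above the median, the largest excess in newly made RNA was that of Cdkn1b, which encodes the cyclin-dependent kinase inhibitor p27. It had levels of 11.13, 10.92 and 9.22 in newly made RNA, against 6.84, 6.63 and 6.85 in total RNA, a difference of 3.65 ± 0.35 (adjusted p = 2.35e-07). Newly made array 3 lay clearly below the other newly made arrays and still above every total array. The second probe set of Cdkn1b differed by 1.24 ± 0.17. Next came the splicing regulator Rbm4b with 3.25 ± 0.14, the transcriptional repressor Bach2 with 3.17 ± 0.41, the RNA-binding gene Taf15 with 2.99 ± 0.21, the 5-methylcytosine dioxygenase Tet2 with 2.91 ± 0.13 and the elongation cyclin Ccnt2 with 2.88 ± 0.14. Tet2 had levels of 9.40, 9.20 and 9.45 in newly made RNA, against 6.24, 6.49 and 6.58 in total RNA, so that its groups were far apart. The remaining 9 of the 15 largest, between 2.78 and 2.86, were Sfpq, Zdhhc21, Ikzf2, Fam126b, Mid1, Cep295, G2e3, Flrt2 and Spin4. They include a paraspeckle protein (Sfpq), a palmitoyl transferase (Zdhhc21), a lymphoid-type zinc finger factor (Ikzf2) and ubiquitin ligases (Mid1 and G2e3). For Sfpq, 2 probe sets were higher and 4 lower. Settings under which a named gene passed or no longer passed the adjusted threshold are given beside it, with the log2 difference there in brackets, as the call gained or lost. Sfpq lost its call with its probe sets averaged (0.10). Ikzf2 lost its call with RefSeq mRNA probe sets (0.13).

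On the other side, Cd99, a cell surface glycoprotein gene, had levels of 6.58, 6.50 and 6.57 in newly made RNA, against 9.36, 9.84 and 9.33 in total RNA, and fell by 2.96 ± 0.14 relative to total RNA (adjusted p = 7.06e-10). All 3 newly made arrays lay close together and far below the total arrays. Lamb3, which encodes a chain of laminin-332, differed by -2.91 ± 0.17, the prefoldin subunit gene Pfdn5 by -2.91 ± 0.23, Atp5e by -2.80 ± 0.16 and the simple-epithelial keratin gene Krt19 by -2.79 ± 0.17. The other 10 of the 15 largest falls, between -2.77 and -2.61, were Clpb, Bsg, Psmd8, Slc39a4, Fdps, Ly6e, Serpina1b, Eef2, Taf10 and Rpn2. These genes encode among others a mitochondrial disaggregase (Clpb), a partner of monocarboxylate transporters (Bsg), a proteasome cap subunit (Psmd8), a zinc importer (Slc39a4), farnesyl diphosphate synthase (Fdps) and translation elongation factor 2 (Eef2). Serpina1b belongs to a family of near-identical copies that its probe set may not tell apart. One further probe set of Ly6e was higher, by 0.67 ± 0.14, and 3 weakly hybridising probe sets of Pfdn5 were not called.

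**Figure D1:**
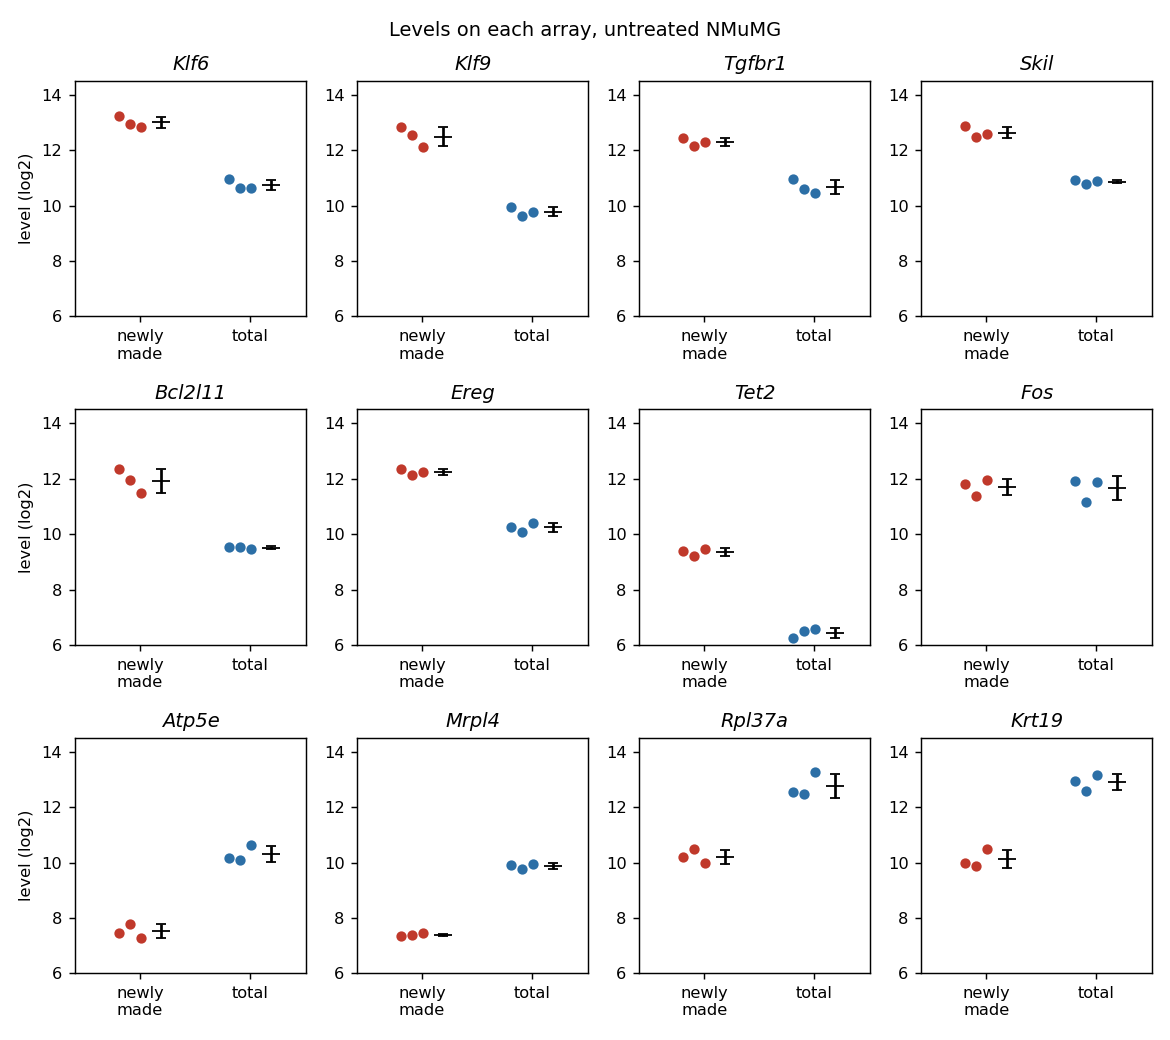
Level of 12 genes on each array (log2, y axis), with the 3 newly made arrays in red on the left of each panel and the 3 total arrays in blue on the right; black marks are the mean and SD of 3 arrays. Klf6, Klf9, Tgfbr1, Skil, Bcl2l11, Ereg and Tet2 lie higher in newly made RNA, Fos overlaps, and Atp5e, Mrpl4, Rpl37a and Krt19 lie lower.

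Among transcription factors, genes of the Kruppel-like family took a larger share of newly made RNA, and immediate-early genes were called in both directions. Of 16 Kruppel-like genes measured, 9 were higher and 2 lower, with a median of 0.51, against -0.08 over all genes. Klf6 had levels of 13.24, 12.95 and 12.86 in newly made RNA, against 10.97, 10.64 and 10.63 in total RNA, a difference of 2.27 ± 0.13 (adjusted p = 2.21e-09), and both groups were far apart. Klf9, a glucocorticoid-responsive member, had 12.82, 12.54 and 12.13 in newly made RNA, against 9.94, 9.64 and 9.78 in total RNA, a difference of 2.71 ± 0.16 (adjusted p = 2.52e-09). Its newly made arrays again lay above all total arrays, and 6 of its 7 probe sets were called higher. Klf7 differed by 2.17 ± 0.15, and Klf10, a known TGF-b early response gene, by 0.93 ± 0.11. The 2 lower members, Klf12 (-0.68 ± 0.12) and Klf1 (-0.37 ± 0.12), had levels below the median gene in newly made RNA. Klf12 lost its call with its probe sets averaged (-0.12) and with RefSeq mRNA probe sets (-0.01). Klf1 lost its call without newly made array 2 (-0.32), without newly made array 3 (-0.36) and without total array 3 (-0.31).

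Immediate-early genes respond to serum and growth factors without new protein synthesis and are textbook cases of unstable mRNA. Of 27 measured, 7 were higher (25.9%) and 6 lower (22.2%), with a median of -0.06. Above the median level, where 24 of them lay, 28.6% of all genes were higher and 42% lower. The split of this list rests on the scaling. After median centring 5 of its members were higher and 13 lower, and after quantile normalization 8 each. Fos had levels of 11.79, 11.39 and 11.95 in newly made RNA, against 11.92, 11.16 and 11.88 in total RNA, and a difference of 0.06 ± 0.19 (adjusted p = 0.849). Its groups overlapped, as did those of Egr1, with 0.13 ± 0.14 (adjusted p = 0.504), and Junb, with -0.65 ± 0.28 (adjusted p = 0.0767). The AP-1 gene Fosl2 was higher, with 11.94, 12.08 and 11.95 in newly made RNA, against 9.89, 9.88 and 10.07 in total RNA, a difference of 2.04 ± 0.11 (adjusted p = 1.63e-09). Its second probe set, designed from a RefSeq mRNA, had -0.02 (adjusted p = 0.909), so its probe sets disagreed. Jun was higher by 0.96 ± 0.12 with both of its probe sets, and the nuclear receptor gene Nr4a2 by 0.61 ± 0.15, with 3 probe sets higher and 1 lower. Ier2 differed by -1.15 ± 0.19, Fosl1 by -0.94 ± 0.20 and Ier5 by -0.61 ± 0.12, and Myc had -0.50 ± 0.21 (adjusted p = 0.0632). A further probe set of Ier5 was higher, by 0.80 ± 0.18. Ier5 lost its call with its probe sets averaged (-0.11). Nr4a2 lost its call after quantile normalization (0.36), with its probe sets averaged (0.22) and with RefSeq mRNA probe sets (0.01). Myc was called after median centring (-0.74), after quantile normalization (-0.45), with only genes above the median level tested (-0.50) and without newly made array 3 (-0.68). Junb was called after median centring (-0.89) and without newly made array 1 (-0.999). Myc (-0.50) and Junb (-0.65) were also called with array number as a replicate block. Egr1 was called after quantile normalization (0.33).

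Genes named Zfp with a number, mostly of the C2H2 zinc finger class, were the largest list. Of 305 measured, 163 were higher (53.4%), 33 were lower (10.8%) and the median was 0.46. Zfp148 had levels of 11.49, 11.44 and 11.45 in newly made RNA, against 9.35, 9.23 and 9.45 in total RNA, a difference of 2.11 ± 0.10 (adjusted p = 7.06e-10), and all 6 of its probe sets were called higher. Zfp329 differed by 2.45 ± 0.12 and Zfp458 by 2.29 ± 0.11. Among the lower members were Zfp771 (-1.32 ± 0.17), Zfp593 (-1.21 ± 0.16) and Zfp428 (-1.04 ± 0.14), and 1 further probe set of Zfp771 was higher by 0.37 ± 0.14. With only RefSeq mRNA probe sets 39 of these genes were measured, 17 were higher and 3 lower, and the median was 0.17.

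Of 20 factors of epithelial-mesenchymal transition, 8 were higher and 1 lower (median 0.40). Zeb2, a repressor of E-cadherin, had levels of 9.59, 9.46 and 9.55 in newly made RNA, against 7.60, 7.74 and 7.95 in total RNA, a difference of 1.77 ± 0.13 (adjusted p = 2.51e-08), with all 5 probe sets higher. The E-box factor Tcf4 differed by 1.46 ± 0.12 and the chromatin protein gene Hmga2 by 1.29 ± 0.10. The lower member was the E-box factor Tcf3, with -1.54 ± 0.12 and all 3 probe sets lower, so 2 factors of one family stood on opposite sides. Of 22 genes of the Hes, Hey, Id and Notch group, 9 were higher and 2 lower. The Notch nuclear partner Rbpj differed by 1.38 ± 0.11, the feedback inhibitor Nrarp by 1.34 ± 0.17 and the receptor gene Notch2 by 1.054 ± 0.12, while Hes6 had -1.29 ± 0.14. The inhibitors of bHLH factors were less uniform: Id2 had 0.43 ± 0.15 (adjusted p = 0.0297), Id3 0.12 ± 0.16 (adjusted p = 0.599) and Id1 -0.72 ± 0.28 (adjusted p = 0.0474), and the arrays of Id1 and Id3 overlapped. The median of this group, 0.11, was -0.13 after median centring, with 5 members higher and 7 lower. Id1 lost its call after quantile normalization (-0.65), in a fit of only the 6 arrays (-0.72), with its probe sets averaged (-0.72), without newly made array 2 (-0.53), without newly made array 3 (-0.73) and without total array 3 (-0.28). Id2 lost its call after median centring (0.18), with RefSeq mRNA probe sets (0.54), without newly made array 1 (0.40), without newly made array 2 (0.43), without total array 2 (0.41) and without total array 3 (0.35).

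Of 37 forkhead genes, 9 were higher (24.3%) and 4 lower (10.8%), against 17.2% and 26.8% of all genes, with a median of -0.05. The forkhead counts were 8 and 16 after median centring and 9 and 12 after quantile normalization. Foxj3, Foxo3 and Foxn2 differed by 1.92 ± 0.12, 1.92 ± 0.13 and 1.84 ± 0.15, whereas Foxp4 had -0.96 ± 0.16 and the endodermal factor Foxa2 -0.61 ± 0.16. For Foxo3 the RefSeq mRNA probe set had -0.28 (adjusted p = 0.0801). Foxq1, the forkhead gene that the series is about, had levels of 9.72, 9.28 and 8.86 in newly made RNA, against 9.30, 8.73 and 8.33 in total RNA, and a difference of 0.49 ± 0.25 (adjusted p = 0.123). Its arrays overlapped, and its second probe set differed by 0.02 ± 0.19. Foxq1 was called without newly made array 3 (0.71) and without total array 1 (0.75). It was also called with array number as a replicate block (0.49 ± 0.12, limma adjusted p = 0.0017), though the numbers are not known to pair the arrays. Of 33 homeobox cluster genes only 2 lay above the median level of all genes, and 2 were higher (Hoxa10 and Hoxb5) and 2 lower (Hoxb13 and Hoxc9), against 1 and 14 after median centring and 2 and 6 after quantile normalization. Hoxb5 lost its call after median centring (0.35). Hoxb13 lost its call without newly made array 1 (-0.31). Hoxc9 lost its call without newly made array 3 (-0.28) and without total array 2 (-0.33). Of 18 clock genes 6 were higher (33.3%) and 2 lower (11.1%), against 17.2% and 26.8% of all genes. The higher clock genes included Clock itself (1.27 ± 0.15), Per3 (0.82 ± 0.24) and Per2 (0.54 ± 0.13). The lower ones were the clock-controlled factor Dbp (-1.30 ± 0.19) and the repressor Nr1d1 (-0.43 ± 0.15). The median of the clock list, 0.16, was -0.08 after median centring, with 2 members higher and 5 lower, and 3 were higher and 5 lower after quantile normalization. Per2 lost its call after median centring (0.29) and after quantile normalization (0.24). Per3 lost its call after median centring (0.57), after quantile normalization (0.53), without newly made array 2 (0.67) and without total array 1 (0.66). Nr1d1 lost its call in a fit of only the 6 arrays (-0.43), without newly made array 1 (-0.35), without newly made array 2 (-0.43), without total array 2 (-0.43) and without total array 3 (-0.28).

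Of 66 chromatin modifiers, 31 were higher and 17 lower (median 0.18). Besides Tet2, the Polycomb-associated gene Jarid2 differed by 1.72 ± 0.10 and the acetyltransferase gene Kat6a by 1.65 ± 0.11. The acetyltransferase gene Kat2a, with -1.62 ± 0.12, and the histone methyltransferase gene Ehmt2, with -1.75 ± 0.14, stood on the other side. So did Jmjd8 (-1.77 ± 0.16), which is in the list by its symbol, and whether it acts on chromatin was not examined. Kat6a had levels of 10.95, 10.995 and 10.94 in newly made RNA, against 9.25, 9.53 and 9.17 in total RNA, and Kat2a had 8.36, 8.29 and 8.27 in newly made RNA, against 9.77, 9.82 and 10.20 in total RNA. Neither gene's groups overlapped, and the 2 acetyltransferase genes differed in opposite directions. The median of this list was -0.07 after median centring, with 26 higher and 24 lower, and -0.44 over the 12 members with RefSeq mRNA probe sets.

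**Figure D2:**
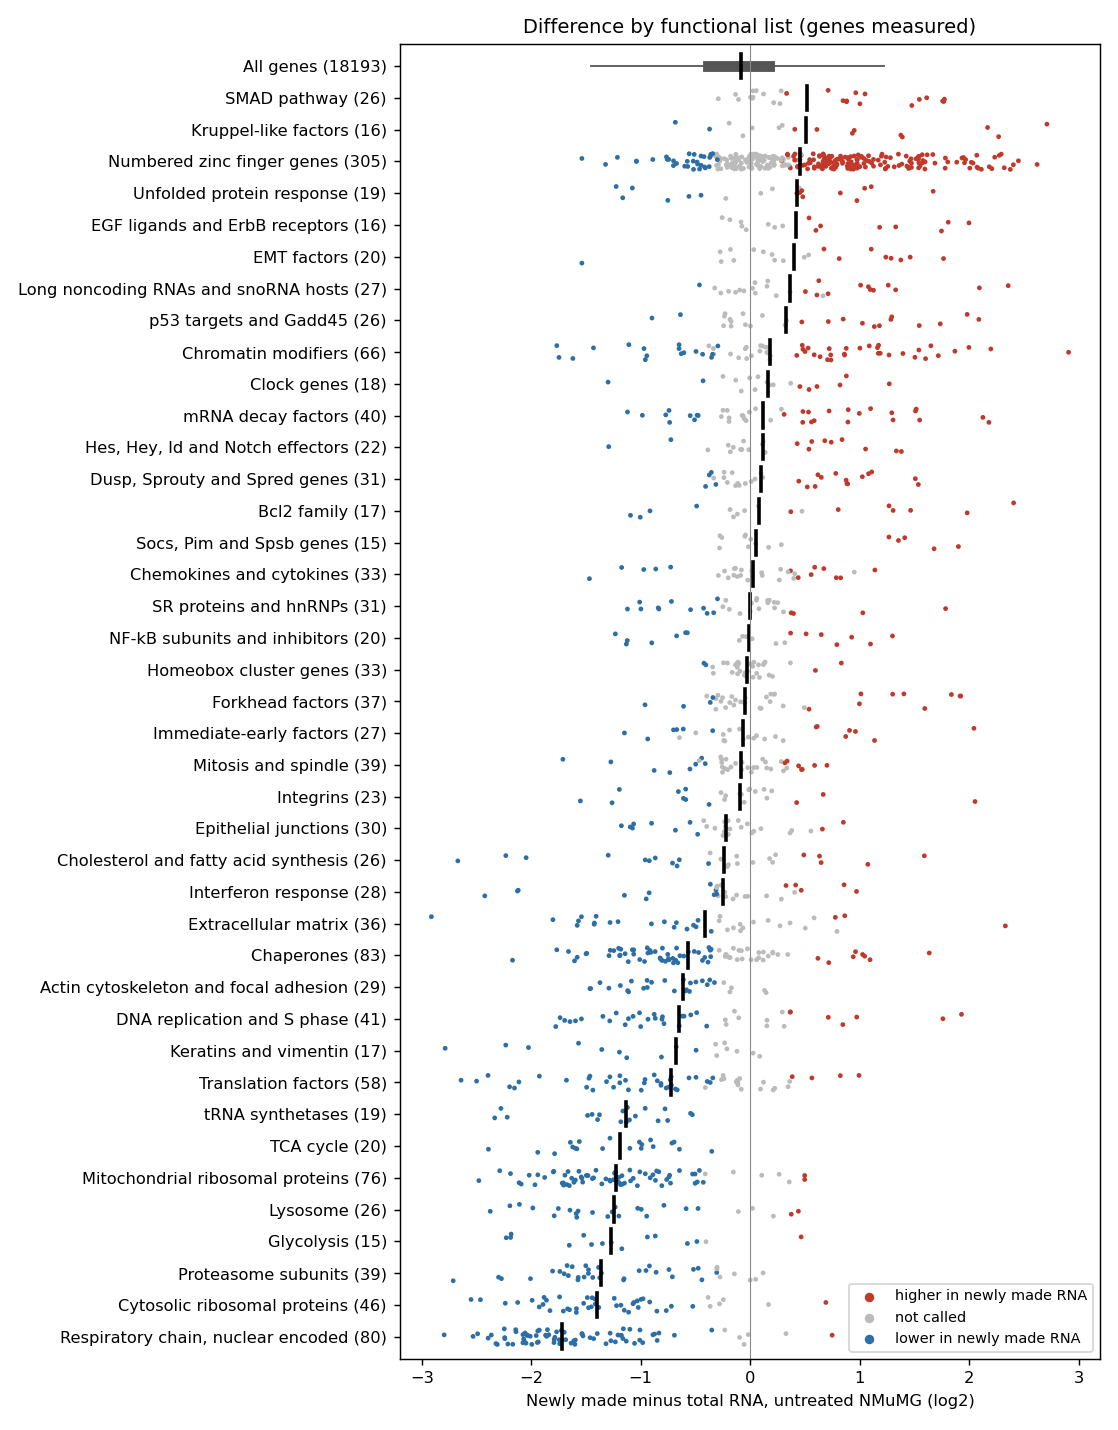
Newly made minus total RNA (log2, x axis) of each member of 40 functional lists, ordered by median, with all genes at the top (thin line, 5th to 95th percentile; thick line, 25th to 75th); black ticks are medians and colours give the call. The SMAD pathway has the highest median, 0.52, and the respiratory chain the lowest, -1.72. Median centring would move every point left by 0.25, and the medians of 9 lists, markers included, change sign with it.

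Among signalling genes, more were higher than lower in the SMAD and EGF lists under each scaling, while the balance of other lists turned or narrowed with the scaling. The SMAD pathway carries TGF-b signals from receptor kinases to the nucleus, and 14 of its 26 measured genes were higher and 0 lower (median 0.52), against 12 and 3 after median centring. By role, the activin receptor gene Acvr2a had levels of 9.74, 9.68 and 10.23 in newly made RNA, against 8.10, 8.10 and 8.13 in total RNA, a difference of 1.77 ± 0.14 (adjusted p = 4.66e-08). Newly made array 3 was the highest, and both groups were apart. The receptor gene Tgfbr1, named after its value was seen, had 12.43, 12.16 and 12.29 in newly made RNA, against 10.95, 10.61 and 10.48 in total RNA, a difference of 1.61 ± 0.16 (adjusted p = 4.92e-07). Of the 8 Smad genes, 5 were higher (median 0.59): Smad5, a mediator of BMP signals, had 10.54, 10.79 and 11.22 in newly made RNA, against 8.96, 8.98 and 9.34 in total RNA, a difference of 1.76 ± 0.17 (adjusted p = 3.14e-07). The inhibitory Smad7 had 10.51, 10.61 and 10.60 in newly made RNA, against 9.58, 9.46 and 9.68 in total RNA, a difference of 1.002 ± 0.11 (adjusted p = 1.77e-06), and both probe sets were called. The SMAD co-repressor gene Skil had 12.86, 12.49 and 12.57 in newly made RNA, against 10.91, 10.79 and 10.91 in total RNA, a difference of 1.77 ± 0.12 (adjusted p = 9.50e-09). All of these groups were separate, as were those of 50.1% of all genes, and choosing members by smallest p favours this. With only RefSeq mRNA probe sets 10 members were measured, 3 were higher and 0 lower, and the median was 0.03.

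Of 31 genes of the dual-specificity phosphatase, Sprouty and Spred families, which dampen MAP kinase signals, 14 were higher and 4 lower. Spred1 had levels of 11.85, 12.02 and 11.96 in newly made RNA, against 10.30, 10.54 and 10.39 in total RNA, a difference of 1.54 ± 0.12 (adjusted p = 2.19e-08), and all 8 probe sets were called higher. Dusp4 differed by 1.51 ± 0.14 and Spry2 by 1.08 ± 0.11. The 4 lower members had differences of -0.31 to -0.41. The median of this list, 0.10, was -0.15 after median centring, with 10 higher and 12 lower, and -0.02 after quantile normalization, with 14 and 8. The 16 EGF ligand and ErbB receptor genes had 8 higher and 0 lower (median 0.42), against 6 and 4 after median centring. The ligand gene Ereg had 12.36, 12.13 and 12.23 in newly made RNA, against 10.26, 10.07 and 10.39 in total RNA, a difference of 1.999 ± 0.13 (adjusted p = 7.51e-09). Its receptor gene Egfr differed by 1.75 ± 0.13 with 3 of 7 probe sets called, and Errfi1, a feedback inhibitor of that receptor, by 1.182 ± 0.12. Of 15 Socs, Pim and Spsb genes 5 were higher and 0 lower (median 0.05, but -0.20 after median centring, with 5 higher and 4 lower), led by Socs4 (1.90 ± 0.16), Socs7 (1.41 ± 0.12) and Spsb1 (1.35 ± 0.14). With only RefSeq mRNA probe sets, 0 of 10 members of this last list were called by limma, and its median was -0.03.

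Above the median level, where 16 of the 20 genes of the NF-kB list lay, 28.6% of all genes were higher and 42% lower. The NF-kB list had 7 of 20 genes higher (35%) and 7 lower (35%), against 4 and 8 after median centring. The higher ones included the ubiquitin ligase gene Birc2 (1.30 ± 0.11) and the inducible inhibitors Nfkbiz (1.10 ± 0.12) and Tnfaip3 (0.93 ± 0.12), and the lower ones the subunit gene Nfkb2 (-1.23 ± 0.11), Bcl3 (-1.13 ± 0.12) and Nfkbib (-1.12 ± 0.12). Nfkbiz had levels of 11.78, 11.93 and 11.96 in newly made RNA, against 10.86, 10.67 and 10.84 in total RNA, and Nfkb2 had 7.41, 7.27 and 7.35 in newly made RNA, against 8.52, 8.55 and 8.66 in total RNA. Their groups were separate in opposite directions. For Tnfaip3 the RefSeq mRNA probe set had -0.33 (adjusted p = 0.149), and with its probe sets averaged 0.30 (adjusted p = 0.0669). Chemokine and cytokine genes (33, median 0.02) had 8 higher (24.2%) and 5 lower (15.2%), against 17.2% and 26.8% of all genes. After median centring 3 were higher and 13 lower (median -0.22), and after quantile normalization 9 each (-0.03). The cytokine gene Lif had 10.94, 10.49 and 10.49 in newly made RNA, against 9.62, 9.48 and 9.40 in total RNA, a difference of 1.14 ± 0.17 (adjusted p = 3.65e-05), and the neutrophil chemokine gene Cxcl1 differed by 0.79 ± 0.11. The alarmin gene Il33 had 9.52, 9.43 and 9.56 in newly made RNA, against 10.92, 10.96 and 11.04 in total RNA, a difference of -1.47 ± 0.11 (adjusted p = 1.41e-08), and lay on the other side with Il18 (-0.97 ± 0.13) and Cxcl16 (-0.86 ± 0.11). Probe sets of Csf1 disagreed, with the one that stood for the gene at 0.67 ± 0.16 and 2 others at -0.71 ± 0.12 and -0.95 ± 0.13.

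Genes that act on RNA were mixed. Of 40 mRNA decay factors 18 were higher (45%) and 9 lower (22.5%), against 12 and 15 after median centring. Their median was 0.12, and -0.13 after median centring. Above the median level, where 38 of them lay, 28.6% of all genes were higher and 42% lower. The decapping enzyme gene Dcp2 had levels of 11.76, 11.95 and 12.04 in newly made RNA, against 9.66, 9.62 and 9.93 in total RNA, a difference of 2.18 ± 0.14 (adjusted p = 4.98e-09), although a second, dimmer probe set had -0.65 ± 0.11. The nonsense-mediated decay kinase gene Smg1 differed by 2.13 ± 0.18 and the deadenylase gene Cnot6l by 1.52 ± 0.11, with all 4 probe sets of Cnot6l higher. The exosome subunit gene Exosc2 had -0.99 ± 0.18. Hnrnpd, which encodes the AU-rich element binding protein AUF1 and stands in both RNA lists, had 10.28, 10.32 and 10.22 in newly made RNA, against 11.42, 11.36 and 11.41 in total RNA, a difference of -1.12 ± 0.10. Its 2 other probe sets were higher, by 1.41 ± 0.15 and 1.26 ± 0.22. Of 31 SR protein and hnRNP genes, 4 were higher (12.9%) and 11 lower (35.5%). Above the median level, where 30 of them lay, 28.6% of all genes were higher and 42% lower. Hnrnpa1 differed by 1.79 ± 0.13 and Srsf10 by 1.03 ± 0.12, and Srsf9 by -1.01 ± 0.11 and Hnrnpl by -0.999 ± 0.18. Another bright probe set of Hnrnpa1 had 0.04 ± 0.12 and was not called, and a dimmer one was higher by 1.86 ± 0.24. For Srsf10, a RefSeq mRNA probe set had 0.17 ± 0.11 and was not called. Its other probe sets were higher, by 0.95 ± 0.14 and 1.35 ± 0.19. After quantile normalization 15 members of that list were higher and 7 lower, and after median centring 2 and 15, so its balance turned with the scaling.

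Long noncoding RNAs and hosts of small nucleolar RNAs had 12 of 27 members higher and 1 lower (median 0.36). The imprinted transcript Kcnq1ot1 had levels of 8.44, 7.91 and 8.30 in newly made RNA, against 5.81, 6.08 and 6.47 in total RNA, a difference of 2.09 ± 0.19 (adjusted p = 1.43e-07). Snhg14 differed by 2.36 ± 0.19 and the X-inactivation transcript Xist by 1.01 ± 0.12, whereas the host gene Snhg8 had -0.46 ± 0.15. The value of 2 abundant nuclear transcripts depended on the probe set. Malat1 had 13.81, 13.91 and 13.59 in newly made RNA, against 13.58, 13.53 and 13.74 in total RNA, and a difference of 0.15 ± 0.13 (adjusted p = 0.388), while 4 of its 6 other probe sets were higher by 0.85 to 1.82. Neat1, the scaffold of paraspeckles, had 0.36 ± 0.16 (adjusted p = 0.0734) with one probe set and 1.31 ± 0.17 with the other. Snhg8 lost its call after quantile normalization (-0.23), without newly made array 3 (-0.32) and without total array 3 (-0.38). Neat1 was called after quantile normalization (0.59), with its probe sets averaged (0.84) and without newly made array 2 (0.46). Malat1 was called after quantile normalization (0.73) and with its probe sets averaged (0.74).

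Genes of DNA replication and S phase were mostly lower, with 26 of 41 lower and 7 higher (median -0.65). The DNA ligase gene Lig1 had levels of 9.25, 9.44 and 9.59 in newly made RNA, against 10.995, 10.91 and 11.31 in total RNA, a difference of -1.65 ± 0.14 (adjusted p = 6.78e-08). The clamp loader gene Rfc2 differed by -1.54 ± 0.10 and the GINS subunit gene Gins2 by -1.60 ± 0.14, and 5 of 7 Mcm helicase genes were lower with 0 higher. A few members stood apart from the rest of the list: the S phase cyclin gene Ccne2 had 10.62, 10.80 and 10.69 in newly made RNA, against 9.12, 8.98 and 8.72 in total RNA, a difference of 1.76 ± 0.15 (adjusted p = 1.01e-07), and Gins3 differed by 0.97 ± 0.12. Tyms, thymidylate synthase, had 1.93 ± 0.17 with the probe set that stood for it and -0.75 ± 0.16 with one other. Mitosis and spindle genes had 7 of 39 higher (17.9%) and 8 lower (20.5%), with a median of -0.08. All 39 lay above the median level, where 28.6% of all genes were higher and 42% lower. The balance of this list rests on the scaling. After median centring 2 of its genes were higher and 19 lower, and after quantile normalization 14 and 10 (median 0.13). The kinesin gene Kif11 differed by 0.70 ± 0.12, and the cyclin gene Ccnb2 by -1.71 ± 0.21, Kif20a by -1.27 ± 0.17 and Plk1 by -0.88 ± 0.11.

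Of 26 p53 targets and Gadd45 genes, 12 were higher and 2 lower (median 0.33). Trp53inp1 had levels of 12.95, 12.92 and 12.99 in newly made RNA, against 10.97, 10.60 and 11.02 in total RNA, a difference of 2.09 ± 0.13 (adjusted p = 3.79e-09), and the p53 inhibitor gene Mdm4 differed by 1.74 ± 0.18 and Ccng2 by 1.29 ± 0.13. The 2 lower genes were Gadd45g (-0.90 ± 0.17) and Aen (-0.64 ± 0.15), and 1 further probe set of Aen was higher by 0.71 ± 0.12. The Bcl2 family of apoptosis regulators had 7 of 17 genes higher (41.2%) and 4 lower (23.5%). Above the median level, where 13 of them lay, 28.6% of all genes were higher and 42% lower. Bcl2l11, which encodes the death-promoting protein Bim, had 12.34, 11.94 and 11.48 in newly made RNA, against 9.55, 9.54 and 9.45 in total RNA, a difference of 2.41 ± 0.18 (adjusted p = 2.13e-08), and its newly made arrays were spread more widely than its total arrays. Bcl2, the founding survival gene, had 9.89, 10.11 and 10.24 in newly made RNA, against 8.58, 8.55 and 8.71 in total RNA, a difference of 1.47 ± 0.12, with all 5 probe sets higher. The death-promoting genes Bak1 (-1.09 ± 0.12), Bad (-1.005 ± 0.14) and Bok (-0.92 ± 0.14) stood on the other side. The median of the family, 0.08, was -0.17 after median centring, with 6 higher and 7 lower, and -0.05 after quantile normalization. One probe set of Bcl2l11 was lower, by 0.49 ± 0.14.

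Genes of respiration, protein synthesis and protein degradation formed the other end of the comparison. Of 80 nuclear genes of the respiratory chain, which makes ATP in the mitochondrial inner membrane, 74 were lower and 1 higher in newly made RNA (median -1.72). Atp5e had levels of 7.47, 7.79 and 7.29 in newly made RNA, against 10.18, 10.11 and 10.65 in total RNA, a difference of -2.80 ± 0.16 (adjusted p = 2.32e-09). The complex I gene Ndufb10 had 7.77, 7.89 and 7.76 in newly made RNA, against 10.27, 10.11 and 10.65 in total RNA, a difference of -2.53 ± 0.15 (adjusted p = 2.65e-09), and Ndufc1 differed by -2.31 ± 0.14. All newly made arrays lay below all total arrays for these genes, which were chosen by smallest p. By complex, 33 of 35 complex I genes were lower (median -1.79), as were 9 of 9 of complex III (-1.996), 10 of 14 of complex IV (-1.11) and 17 of 17 of ATP synthase (-1.73). The higher gene was Cox7c, a complex IV subunit, with 7.69, 7.95 and 7.98 in newly made RNA, against 6.87, 7.23 and 7.28 in total RNA, a difference of 0.75 ± 0.15. Its probe set was not designed from a RefSeq mRNA and was dim for this list, whose median level in total RNA was 11.49. Whether the value stands for the main Cox7c transcript was not tested. The 5 genes that were not called were Cox6a2, Cox6b2, Cox7b2, Ndufa4l2 and Ndufb4, named after their values were seen. Their mean levels over the 6 arrays were 6.12, 4.72, 3.42, 5.64 and 4.57, all below the median gene level of 6.69. Such weak signals do not show that these genes differ from the rest of the list. Cox6a2 was called after quantile normalization (-0.32). Cox6b2 was called after median centring (-0.48). Ndufa4l2 was called after median centring (-0.34) and after quantile normalization (-0.31). Ndufb4 was called without newly made array 1 (0.43) and with array number as a replicate block (0.33). Genes of the mitochondrial genome were not analysed here.

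Mitochondrial ribosomal proteins had 69 of 76 genes lower and 2 higher (median -1.22). Mrpl4 had levels of 7.37, 7.37 and 7.44 in newly made RNA, against 9.91, 9.75 and 9.96 in total RNA, a difference of -2.48 ± 0.11 (adjusted p = 7.06e-10), and its newly made arrays lay close together. Mrpl17 differed by -2.19 ± 0.13 and Mrpl42 by -2.02 ± 0.12. The medians of the large and small subunits were -1.23 over 47 genes and -1.21 over 29 genes. The higher genes were Mrpl50 (0.50 ± 0.15) and Mrpl1 (0.50 ± 0.14), and 1 further probe set of Mrpl1 was lower by 0.54 ± 0.20. Mrpl50 lost its call after median centring (0.25), with its probe sets averaged (0.20), without newly made array 2 (0.45), without newly made array 3 (0.37) and without total array 2 (0.46). Mrpl1 lost its call after median centring (0.25) and with its probe sets averaged (0.13).

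Of 46 cytosolic ribosomal protein genes 40 were lower and 1 higher (median -1.40, and -0.82 after quantile normalization). Rpl37a had levels of 10.20, 10.48 and 9.98 in newly made RNA, against 12.56, 12.47 and 13.28 in total RNA, a difference of -2.55 ± 0.19 (adjusted p = 2.33e-08), with all 3 probe sets lower and total array 3 the highest. Rpl14 differed by -2.24 ± 0.12 and Rpl8 by -1.74 ± 0.12. The large subunit had a median of -1.44 over 26 genes and the small subunit -1.20 over 20. Rpl12 was the exception, with 9.09, 9.62 and 9.23 in newly made RNA, against 8.42, 8.53 and 8.91 in total RNA and 0.69 ± 0.15 (adjusted p = 0.00123). Its probe set was not designed from a RefSeq mRNA and was dim for this list, whose median level in total RNA was 13.35. Whether the value stands for the main Rpl12 transcript was not tested. Ribosomal protein genes have many processed pseudogenes of near-identical sequence, and whether these probe sets also read such copies was not tested.

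Other parts of the protein synthesis machinery lay on the same side. All 19 measured aminoacyl-tRNA synthetase genes were lower (median -1.13), and the valyl enzyme gene Vars had levels of 8.35, 8.36 and 8.39 in newly made RNA, against 10.64, 10.60 and 10.87 in total RNA, a difference of -2.33 ± 0.11 (adjusted p = 7.06e-10). Of its list mates, Farsa differed by -2.28 ± 0.15 and Qars by -1.39 ± 0.11, but other probe sets of Farsa (2) and Qars (1) were higher. Translation factors had 38 of 58 genes lower and 4 higher (median -0.73, and -0.32 with the mean of all probe sets). Of 11 eIF3 genes, which form the largest initiation factor, 10 were lower (median -1.46), with Eif3f at -2.50 ± 0.14, Eif3k at -2.40 ± 0.17 and Eif3b at -1.93 ± 0.14. Among elongation factors 8 of 11 were lower. The start-site scanning factor gene Eif1a had 11.90, 12.09 and 12.35 in newly made RNA, against 11.05, 11.05 and 11.27 in total RNA, a difference of 0.99 ± 0.16, and Eif5 (0.38 ± 0.11) and the stress kinase gene Eif2ak3 (0.82 ± 0.15) were also higher. One further probe set of Eif5 was lower, by 0.67 ± 0.15. Eif5 lost its call after median centring (0.14). Eif2ak3 lost its call with its probe sets averaged (0.19). Farsa lost its call with its probe sets averaged (-0.26).

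The proteasome, which degrades ubiquitin-tagged proteins, had 32 of 39 genes lower and 0 higher (median -1.36, and -0.74 with the mean of all probe sets). Psmd8 had levels of 7.60, 7.87 and 8.42 in newly made RNA, against 10.71, 10.34 and 10.99 in total RNA, a difference of -2.71 ± 0.19 (adjusted p = 1.20e-08), and Psmd4 differed by -2.30 ± 0.15 and Psmb2 by -1.48 ± 0.11. All 6 cap ATPase genes were lower (median -1.48), 16 of 19 core genes (-1.16) and 10 of 14 other cap genes (-1.08). Chaperone genes were lower in 52 of 83 cases and higher in 8 (median -0.57). The chaperonin list had 7 of 8 genes lower, led by Cct5 (-1.77 ± 0.13), while the J-domain genes ranged from -2.17 for Dnajc15 to 1.64 for Dnajb14. Hspe1, the mitochondrial co-chaperonin, differed by -1.50 ± 0.14.

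The unfolded protein response was mixed, with 9 of 19 genes higher and 6 lower (median 0.43). The eIF2alpha phosphatase subunit gene Ppp1r15b had levels of 11.93, 11.73 and 12.07 in newly made RNA, against 10.21, 10.09 and 10.41 in total RNA, a difference of 1.67 ± 0.12 (adjusted p = 2.01e-08). Dnajb9 (1.046 ± 0.13) was also higher, and Asns (-1.23 ± 0.17), Atf5 (-1.17 ± 0.13) and the chaperone gene Hsp90b1 (-1.08 ± 0.15) were lower. The degradation adaptor gene Sel1l had 0.98 ± 0.11, with 2 other probe sets lower. After median centring 5 members were higher and 7 lower. The median of this list was -0.14 when the probe sets of a gene were averaged, and -0.14 over the 9 genes with RefSeq mRNA probe sets.

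Genes of the tricarboxylic acid cycle, glycolysis and the lysosome were mostly lower, while those of cholesterol and fatty acid synthesis were mixed. All 20 genes of the tricarboxylic acid cycle were lower (median -1.19). Idh3g had levels of 8.54, 9.11 and 9.18 in newly made RNA, against 11.23, 11.09 and 11.68 in total RNA, a difference of -2.39 ± 0.19 (adjusted p = 3.40e-08), and Suclg2 differed by -1.79 ± 0.13 and Sdhb by -1.94 ± 0.14. Of 15 glycolysis genes 13 were lower and 1 higher (median -1.27). Aldoa had 10.50, 10.39 and 10.28 in newly made RNA, against 12.62, 12.39 and 12.73 in total RNA, a difference of -2.19 ± 0.12 (adjusted p = 1.60e-09), with all 5 probe sets lower, and Tpi1 differed by -1.65 ± 0.12. Pfkl had -2.23 ± 0.12, although 1 of its 3 probe sets was higher. The higher gene was Hk2, the inducible hexokinase, with 0.47 ± 0.15, and 1 gene, Pfkp, was not called. Cholesterol and fatty acid synthesis had 11 of 26 genes lower (42.3%) and 5 higher (19.2%), with a median of -0.24. All 26 lay above the median level, where 42% of genes were lower and 28.6% higher. In this list the enzyme genes Fdps (-2.67 ± 0.17), Ebp (-2.23 ± 0.16) and Tm7sf2 (-2.05 ± 0.16) were lower. Hsd17b7 (1.59 ± 0.16), the feedback regulator gene Insig1 (1.07 ± 0.16) and Hmgcs1 (0.65 ± 0.15) were higher. Other probe sets of Hmgcs1 had 0.31 ± 0.17, 0.33 ± 0.19 and 0.33 ± 0.18 and were not called. Its dimmest probe set was higher, by 2.53 ± 0.15. Lysosomal genes had 21 of 26 lower and 2 higher (median -1.25), with the protease genes Ctsa at -2.38 ± 0.16, Ctsz at -2.11 ± 0.16 and Ctsd at -1.75 ± 0.13, and Npc1 (0.44 ± 0.11) and Ctsk (0.38 ± 0.14) higher. Hk2 lost its call after median centring (0.22), without newly made array 3 (0.35) and without total array 2 (0.33). Npc1 lost its call after median centring (0.19) and after quantile normalization (0.15). Ctsk lost its call after median centring (0.13), after quantile normalization (0.18), without newly made array 2 (0.31), without total array 1 (0.30) and without total array 3 (0.37). Pfkp was called after median centring (-0.65) and with array number as a replicate block (-0.40).

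Keratin and actin cytoskeleton genes were lower or not called. Keratin, vimentin and lamin genes had 10 of 17 lower and 0 higher (median -0.68). Krt19 had levels of 9.98, 9.89 and 10.48 in newly made RNA, against 12.96, 12.59 and 13.17 in total RNA, a difference of -2.79 ± 0.17 (adjusted p = 3.63e-09). Krt18 differed by -1.36 ± 0.15, Krt8 by -1.13 ± 0.13, Lmna by -2.23 ± 0.14 and the mesenchymal filament gene Vim by -1.57 ± 0.24. All of these had separate groups, as did 50.1% of all genes, and choosing members by smallest p favours this. Actin cytoskeleton and focal adhesion genes had 24 of 29 lower and 0 higher (median -0.61), led by Zyx (-1.29 ± 0.12), Ezr (-1.11 ± 0.11) and Cnn2 (-1.12 ± 0.12). Actb itself had 13.99, 13.71 and 13.77 in newly made RNA, against 14.07, 13.82 and 14.31 in total RNA, and a difference of -0.24 ± 0.13 (adjusted p = 0.155), and its groups overlapped. The other Actb probe set, designed from a RefSeq mRNA, was higher by 0.86 ± 0.17, and with quantile normalization the main one had 0.22 (adjusted p = 0.0676), so no direction is given for Actb. Actb was called after median centring (-0.49) and without total array 2 (-0.37).

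Of 36 extracellular matrix genes 19 were lower and 3 higher (median -0.42). Besides Lamb3, the collagen IV gene Col4a2 differed by -1.54 ± 0.14 and the collagen-modifying enzyme gene Plod1 by -1.58 ± 0.14. Timp3, a matrix-bound inhibitor of metalloproteinases, had levels of 11.88, 12.48 and 12.36 in newly made RNA, against 9.38, 10.06 and 10.29 in total RNA, a difference of 2.33 ± 0.28 (adjusted p = 2.98e-06), with all 4 probe sets higher, and Thbs1 (0.86 ± 0.29) and Plod2 (0.78 ± 0.19) were the other higher genes. Thbs1 lost its call after median centring (0.62), without newly made array 2 (0.43) and without total array 1 (0.74). Fibronectin, Fn1, had -1.28 ± 0.25 with one probe set and 2.41 ± 0.21 with the other. Of 30 junction genes 8 were lower and 2 higher (median -0.22), a share of lower genes near the 26.8% of all genes, against 21 and 1 after median centring. E-cadherin, Cdh1, had 10.57, 10.55 and 10.39 in newly made RNA, against 11.74, 11.53 and 11.48 in total RNA, a difference of -1.08 ± 0.14 (adjusted p = 8.67e-06), and the plakin gene Ppl differed by -1.177 ± 0.15, whereas the polarity gene Pard6b had 0.66 ± 0.13. Integrin genes had 8 of 23 lower (34.8%) and 3 higher (13%), against 26.8% and 17.2% of all genes, with a median of -0.09. The epithelial subunit genes pointed both ways, with Itgb6 at 2.05 ± 0.28 and Itgb4 at -1.55 ± 0.14. Interferon response genes had 10 of 28 lower (35.7%) and 5 higher (17.9%), against the same 26.8% and 17.2% of all genes, with a median of -0.25. The lower ones were led by the antigen-presentation genes H2-K1 (-2.43 ± 0.12), H2-D1 (-2.13 ± 0.18) and B2m (-2.12 ± 0.13), while Irf2 (0.97 ± 0.12) and Irf9 (0.47 ± 0.12) were higher. H2-K1 and H2-D1 are near-identical in part, and their probe sets may not be fully separate. Irf9 lost its call after median centring (0.22) and after quantile normalization (0.17).

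The sequence from which a probe set was designed went with the direction of the difference. Over all 45037 probe sets, newly made RNA was higher in 23.9% and lower in 20.3%. Among those above the median gene level, probe sets with no gene symbol were higher in 62.6% and lower in 20% of 1419, with a median of 1.03. Probe sets from expressed sequence tags (ESTs) were higher in 44.1% and lower in 27.5% of 7540. Those from RefSeq mRNAs were higher in 15.5% and lower in 59.6% of 2649, with a median of -0.62. Of the other classes, probe sets with several gene symbols had a lower share of higher calls than RefSeq mRNA probe sets, 14.1% of 454, with 64.3% lower.

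**Figure D3:**
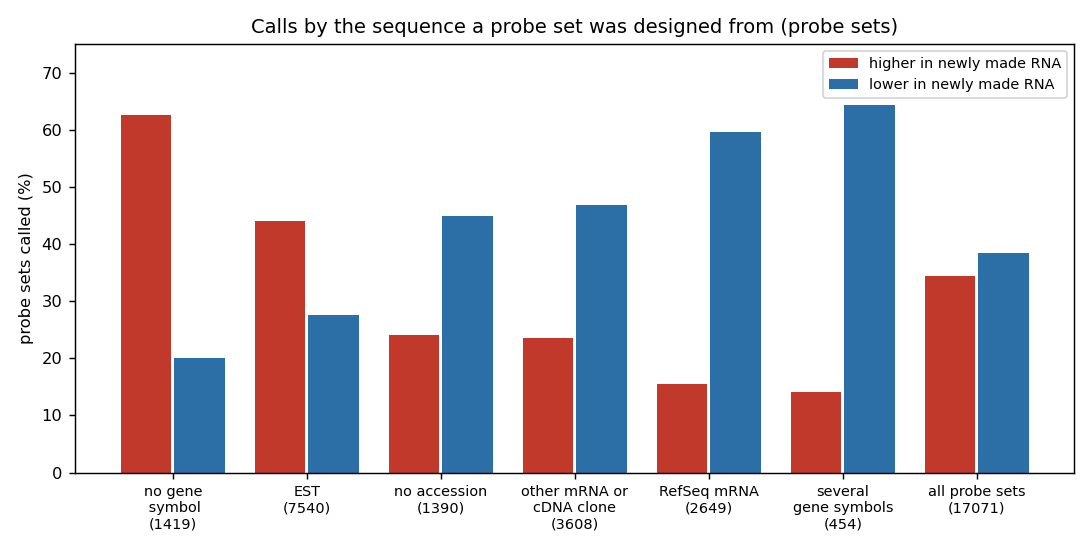
Percent of probe sets called higher (red) and lower (blue) in newly made RNA, by the sequence each probe set was designed from, for probe sets above the median gene level; numbers in brackets are probe sets. The share called higher is 62.6% for probe sets with no gene symbol and 15.5% for those from RefSeq mRNAs.

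EST and RefSeq mRNA probe sets also differed within genes. Of 9010 genes with over 1 probe set, 970 (10.8%) had probe sets called in opposite directions, and the highest probe set came from an EST in 745 of these and the lowest in 362, while 50.1% of the probe sets with 1 gene symbol came from ESTs. Of 471 genes that had both EST and RefSeq mRNA probe sets above the median level, the EST value was above the RefSeq mRNA value in 382 (81.1%), by a median of 0.54. Rtn4, which encodes the membrane-shaping protein reticulon 4, was named with the next genes after its values were seen. An EST probe set of Rtn4 had levels of 11.12, 10.74 and 10.14 in newly made RNA, against 7.03, 7.19 and 7.08 in total RNA, a difference of 3.57 ± 0.20. A RefSeq mRNA probe set of Rtn4 had 7.89, 7.93 and 8.35 in newly made RNA, against 9.42, 9.22 and 9.69 in total RNA, a difference of -1.39 ± 0.16. Both are outside the spread of the arrays, in opposite directions. For Ctnna1, alpha-catenin, an EST probe set differed by 3.40 ± 0.13 and a RefSeq mRNA probe set by -1.07 ± 0.16. For Gspt1, translation termination factor eRF3, the values were 3.01 ± 0.13 for an EST and -1.77 ± 0.22 for a cDNA probe set. Where in the transcript these probe sets lie was not analysed here.

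Gene span, from the annotated start to the end of the gene with introns on GRCm38.p6, also went with the difference. Across the 9085 genes above the median level with a span, Spearman's rho was 0.31, a description across genes that share arrays and amplification. In the shortest of 5 equal bins, with a median span of 4812 bp, the median difference was -0.65, and 14% of genes were higher and 60.3% lower. In the longest bin, with a median span of 114467 bp, the median difference was 0.25, and 43.9% were higher and 26% lower. The lists followed this only in part: cytosolic ribosomal genes had a median span of 3452 bp and SMAD pathway genes 68732 bp, but tRNA synthetase genes had 26148 bp and numbered zinc finger genes 17956 bp, and these 2 lists lay on opposite sides. Extracellular matrix genes had a median span of 51942 bp and a median difference of -0.42. Level itself went little with the direction (rho = -0.07), while the share of genes called grew with it. Genes annotated as long noncoding RNA, above the median level, were higher in 43.9% and lower in 15.9% of 107, against 28.3% and 42.4% of 8950 protein-coding genes.

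**Figure D4:**
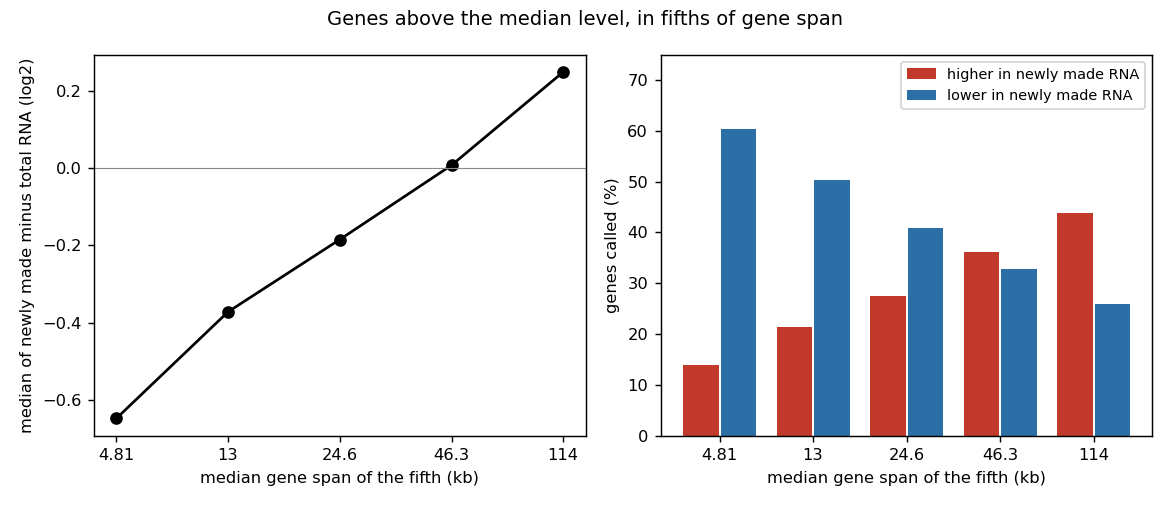
Genes above the median level in 5 equal bins of gene span, with the median span in kb on the x axis: left, median of newly made minus total RNA (log2); right, percent of genes called higher (red) and lower (blue) in newly made RNA. The median difference is -0.65 in the shortest and 0.25 in the longest bin.

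The 6 arrays from cells given TGF-b1, which share no array with the untreated ones but the same estimate of the spread, gave side-by-side values of the same measure. In them 45% of genes were called, 18.3% higher and 26.8% lower. Of the 3131 genes higher in untreated cells 2907 (92.8%) were also higher with TGF-b1, and of the 4877 lower genes 4268 (87.5%) were also lower. Pearson's r of both differences was 0.97 across 18193 genes, which share probe sets and labelling and are not independent. List medians with TGF-b1 and without it were -1.73 and -1.72 for the respiratory chain, -1.37 and -1.40 for cytosolic ribosomal proteins, 0.58 and 0.52 for the SMAD pathway, 0.67 and 0.51 for Kruppel-like genes and 0.55 and 0.46 for numbered zinc finger genes. The difference of both differences was called for 12 genes (0.066%), 2 with a greater value with TGF-b1 (0.011%) and 10 with a smaller one (0.055%), and 532 had an unadjusted p under 0.05.

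**Figure D5:**
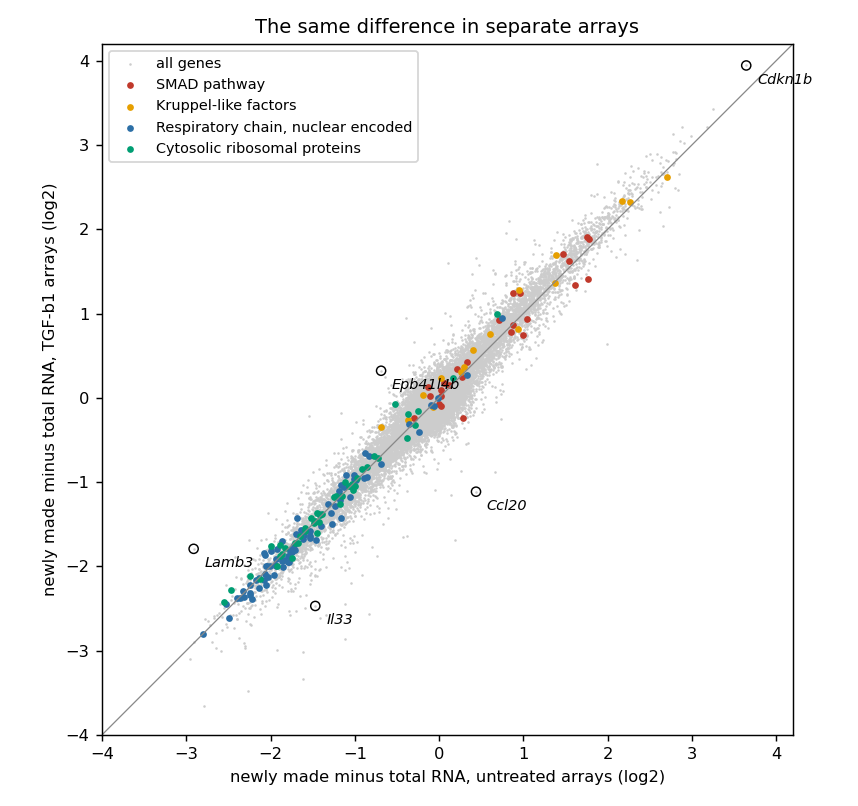
Newly made minus total RNA (log2) of each gene in TGF-b1 arrays (y axis) against untreated arrays (x axis), with members of 4 lists in colour and 5 genes circled; the line marks equal values. Most genes lie near the line, while Ccl20 and Epb41l4b change sign.

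A few genes moved against that pattern. Ccl20, a chemokine gene, had a difference of -1.11 with TGF-b1 and 0.44 without, and Epb41l4b, a gene of a band 4.1 family protein, had 0.32 with TGF-b1 and -0.69 without. In untreated cells Ccl20 had levels of 11.14, 10.84 and 10.91 in newly made RNA, against 10.48, 10.35 and 10.73 in total RNA, and its groups were only just apart. Il33 had -2.47 with TGF-b1 and -1.47 without. 3110009F21Rik had -0.88 with TGF-b1 and 0.67 without. Ccl20 lost its call after median centring (0.19), without newly made array 1 (0.35), without total array 1 (0.42) and without total array 2 (0.35). 3110009F21Rik lost its call after quantile normalization (0.39). Apart from Il33, these genes were named after their values were seen.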

How the data were processed

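Expression of NMuMG cells was measured on 12 Affymetrix arrays in 4 groups of 3, of which the 6 untreated arrays are compared here. The deposited table holds 1 value per probe set and array. Its values were read as log2 from their range, since the deposited labels do not state the scale, and the submitters' processing notes name affy 1.18.2 with no role. How the authors normalized the arrays is not stated by any label or header used here. Per the labels' protocols, RNA was extracted from cells grown with 4sU, labelled RNA was enriched, and both kinds were amplified in the same way.

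Where a gene had several probe sets, the one brightest on average across the 12 arrays stood for it. Other probe sets of a named gene are given only in part, so their absence does not mean that they agree. Differences were tested with limma 3.58.1 (lmFit and eBayes, two-sided) in R 4.3.3 across all 12 arrays and adjusted by Benjamini-Hochberg over 18193 genes. Further probe sets of a gene were called in the same kind of fit, adjusted over 45037 probe sets. An adjusted p under an alternative comes from the fit of that alternative, over 5120 genes for RefSeq mRNA probe sets. Every adjusted p in the text comes from limma. Labels number the arrays but do not say whether a number marks 1 culture, so p-values measure the spread between these arrays, which may be technical, and the number of arrays limits the precision. Simulated data with known differences were used to test the fit. Deviations of newly made and total arrays with the same number had correlations of 0.31, 0.02 and 0.24. Those of arrays with different numbers ran from -0.28 to 0.11. Whether arrays pair by number is thus not settled, and the main fit takes no pairing into account.

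Genes named in the text are the 15 with the largest difference each way among called genes with separate arrays, up to 3 called members each way of each list by smallest p, and a fixed set of 19 symbols. Those outside the rule are said to have been chosen after their values were seen. Members and lists were chosen with earlier results of these data known. Gapdh, Trp53, Bax, Nfkb1, Ccnb1 and Spp1 stand in the lists or the fixed set and were not analysed here. Alternatives were other scalings, probe sets, filters, variance models and left-out arrays.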

Additional observations from a re-analysis of the deposited data

Results flagged for a closer look

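For 4 genes named above, the difference between newly made and total RNA was tested between TGF-b1-treated and untreated cells and passed an adjusted p under 0.05. The change, TGF-b1-treated minus untreated, was -1.55 ± 0.21 for Ccl20 (limma adjusted p = 0.00757). It was -1.55 ± 0.25 for 3110009F21Rik (limma adjusted p = 0.0235), -1.002 ± 0.15 for Il33 (limma adjusted p = 0.0171) and 1.01 ± 0.15 for Epb41l4b (limma adjusted p = 0.0171). For Ccl20, 3110009F21Rik and Epb41l4b the direction of the difference was opposite in the TGF-b1-treated and the untreated cells. For Il33 newly made RNA lay below total RNA in both, and further below it with TGF-b1. These 4 are among the 12 genes of 18193 for which that test passed, and the cause was not tested.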

How the results depend on the processing

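The counts of 3131 higher and 4877 lower genes stayed within 1.5 times in all but 3 alternatives. Median centring of each array gave 2244 higher and 9308 lower genes, so that 19.43% of calls were higher, against 39.1% as deposited and 32.13% after quantile normalization (3153 higher, 6661 lower). Probe sets designed from RefSeq mRNAs, an alternative chosen after seeing the data, gave 439 and 1776 of 5120 genes. A difference of at least 2-fold left 1327 and 1990. Leaving out 1 array gave 2825 to 3295 higher and 4406 to 4753 lower genes. With the replicate block the counts were 3383 and 5188 and no list median changed sign. Among named genes, Foxq1 (0.49 ± 0.12, adjusted p = 0.0017), Junb, Myc, Pfkp and Ndufb4 were called only with that block or in some other alternatives. The numbers are not known to pair the samples. Under median centring the sign turned for Egr1 (-0.11), Fos (-0.19), Id3 (-0.13) and Malat1 (-0.093), none of which was called as deposited. It also ended the calls of 13 named genes, all higher as deposited: Ccl20, Ctsk, Eif5, Hk2, Hoxb5, Id2, Irf9, Mrpl1, Mrpl50, Npc1, Per2, Per3 and Thbs1. Other lost calls stand beside the genes in the text. Quantile normalization turned Actb (0.22), Cox7b2 (0.031) and Rtn4 (0.14). The mean of all probe sets turned Actb (0.31), Csf1 (-0.36), Ctnna1 (0.43), Fn1 (0.56), Hnrnpd (0.52), Pfkp (0.14), Rtn4 (0.98) and Sel1l (-0.23), genes whose probe sets differ in sign. RefSeq mRNA probe sets alone turned Actb (0.86), Fosl2 (-0.018), Foxo3 (-0.28), Pfdn5 (0.10), Socs7 (-0.11), Spsb1 (-0.057), Tnfaip3 (-0.33) and Zfp593 (0.16). With 1 array left out, sign changes were seen for Fos (-0.19 to 0.22), Cox6a2 (-0.15 to 0.049), Cox7b2 (-0.14 to 0.058), Ndufa4l2 (-0.22 to 0.021) and Ptprc (-0.12 to 0.0100), none of them called. Where not stated, the cause was not tested. A difference is relative to its array, so the division into higher and lower genes rests on the scaling, while the order of genes does not change with centring. The value of a gene with several probe sets rests on the one chosen for it. Genes near the background of the array are less likely to be called.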
